A study of Homo sapiens with 4 samples.

Results

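Messages of 10 genes for death receptors and the complex that forms under them were followed in 2 human pancreatic cancer cell lines, MIA PaCa-2 and PANC-1, after treatment with cannabichromene (CBC), a cannabinoid of hemp. The genes were taken by symbol from the 58233 genes of the count table. They comprise receptors for the ligand TRAIL (TNFRSF10A, TNFRSF10B and TNFRSF10D), the receptors FAS and TNFRSF1A, the ligand gene TNFSF10, and the complex genes FADD, CASP8, CFLAR and RIPK1. Poly(A) RNA was sequenced from 4 libraries, 1 for each line and treatment, which the records list as wild type and collected 24 h after treatment. According to the methods the dose of CBC was 35 μM for MIA PaCa-2 and 30 μM for PANC-1, and the controls are recorded as PBS. The methods name acetonitrile as the solvent of CBC and speak of a vehicle control, and whether the PBS controls held that solvent was not tested. Each line is a single established culture, and the doses differ between them, so line and dose cannot be told apart.

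Death receptors are members of the tumor necrosis factor receptor family that carry a death domain inside the cell. When TRAIL or the Fas ligand binds outside, its receptor gathers the adaptor FADD, which recruits procaspase-8. Active caspase-8 then cuts further proteins such as BID. CFLAR encodes c-FLIP, a relative of caspase-8 that joins the same complex and restrains it, and RIPK1 encodes a kinase that steers TNF receptor signals toward survival, apoptosis or necroptosis. TNFRSF10D and its neighbour TNFRSF10C are called decoy receptors because they bind TRAIL without a working death domain. Pancreatic cancer cells often resist TRAIL, and the balance of receptors and c-FLIP is one of the features studied in this resistance.

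The libraries held 21742775 to 27903667 counts, and 3 counts, the limit that a count of 0 allows, correspond to 0.110 to 0.135 CPM, the read count of a gene scaled for library size. The epithelial keratins KRT8, KRT18 and KRT19 were each above 100 CPM in every library, while EPCAM and CDH1 had at most 1 count in MIA PaCa-2. A further keratin, KRT7, was low, at 0.0899 to 2.15 CPM. Of mesenchymal markers, VIM was at 3249 to 4356 CPM and ZEB1 at 43.1 to 101 CPM. CDH2 had 0 counts in both MIA PaCa-2 libraries, and 725 and 507 without and with CBC in PANC-1. Of markers of other cells, PTPRC and CD3E (leukocytes), PECAM1 (endothelium), DCN and LUM (fibroblasts), CPA1 and CELA3A (acinar cells) and INS, GCG and SST (islets) were at 0 counts in all 4 libraries. The summed level of 4 leukocyte markers was 0.0732 to 5.62 CPM, nearly all of it CD14. The sum of 3 endothelial markers was 0.0880 to 2.20 CPM, highest in the MIA PaCa-2 control, where CDH5 had 49 counts, and that of 4 fibroblast markers was 46.4 to 368 CPM, from COL1A2 in MIA PaCa-2 and COL1A1 in PANC-1. The leukocyte and fibroblast sums were lower in the CBC library of each line, and the endothelial sum was lower with CBC in MIA PaCa-2 and near 0 in PANC-1. Their part in the results was not tested. Because each condition had 1 library, a difference between 2 libraries has no replicate check, and its 95% interval (exact binomial) covers counting error only. CBC and PBS were therefore compared across the lines, which stood in for replicates, by edgeR's quasi-likelihood test with a block for the line and 1 residual degree of freedom per gene. Its p-values thus rest on 2 single pairs of libraries. The test moderates the variance across genes, so a p-value does not measure the spread of its gene alone.

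TNFRSF10B, which encodes the death receptor DR5, was the only one of the 10 genes past a 2-fold difference between CBC and PBS in either line, and the only one called by the test over both lines, where it was higher after CBC. It had 2450 counts in the MIA PaCa-2 control and 8743 after CBC, or 110 and 353 CPM. In PANC-1 cells it had 1546 counts in the control and 6496 after CBC, or 68.0 and 238 CPM. Both treated libraries lay above both controls. In such bulk RNA, more cells with a message and more of it per cell cannot be told apart. The log2 fold change was 1.68 (counting interval 1.62 to 1.75) in MIA PaCa-2 and 1.80 (1.73 to 1.89) in PANC-1, and both intervals lay wholly past a 2-fold change. Over both lines the log2 fold change was 1.75 (standard error 0.19, adjusted p = 0.00809, edgeR's quasi-likelihood test with Benjamini-Hochberg adjustment), and it was positive in 2 of 2 lines. Without the block for cell line edgeR called no gene at all, and the adjusted p of TNFRSF10B was 1 after rounding (unadjusted p = 0.0208). The other 4 alternatives to this test, which used edgeR or DESeq2, gave adjusted p from 3.06e-14 to 0.0170. Among all tested genes, 4.93% had a larger log2 fold change in MIA PaCa-2 and 1.85% in PANC-1.

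Of the 10 genes, 9 reached 1 CPM in 1 or both of the libraries compared, and TNFSF10 did not. A log2 fold change past 1 in either direction was seen for 1 of these 9 in MIA PaCa-2, where 20.5% of all tested genes passed it, and for 1 of 9 in PANC-1, where 14.7% did. The test over both lines called 1 of 9, against 4.71% of 16381 genes. In all 3 comparisons the gene was TNFRSF10B. The median log2 fold change of the 9 genes was 0.22 in MIA PaCa-2 and 0.07 in PANC-1, and that of all tested genes was -0.01 and 0.02.

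**Figure D1:**
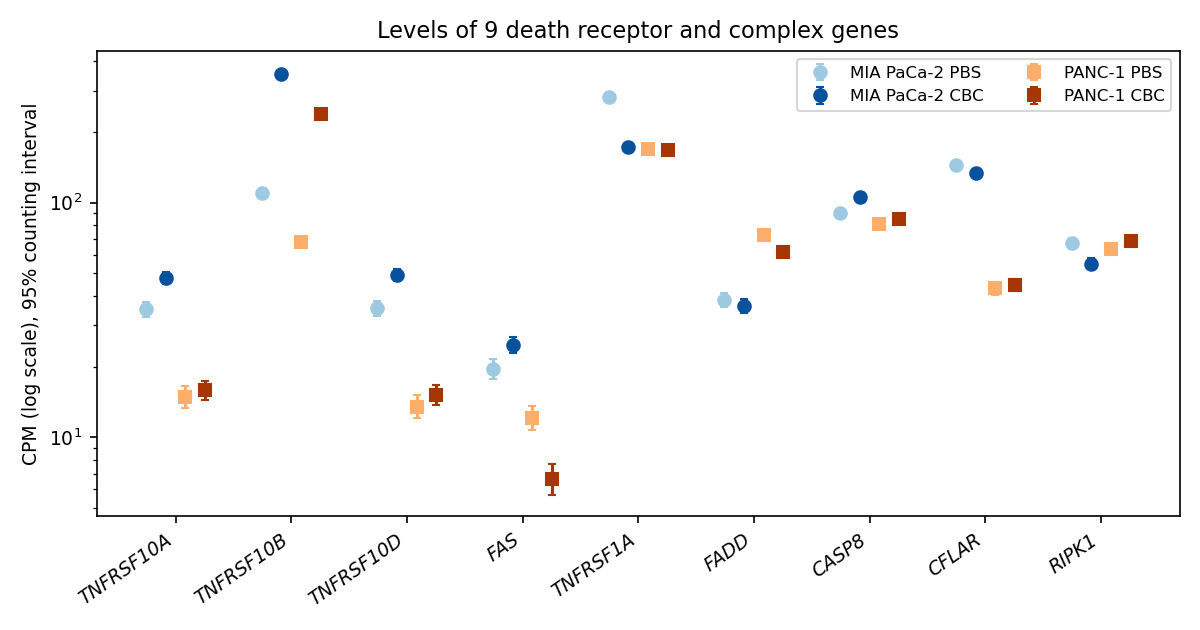
Levels of 9 genes in CPM on a log scale, with 1 point per library (circles MIA PaCa-2, squares PANC-1, light PBS, dark CBC) and 95% counting intervals as bars. TNFRSF10B stands at 353 and 238 CPM after CBC, above 110 and 68.0 CPM in the controls, and CFLAR separates by line (144 and 134 against 43.1 and 44.6 CPM), while TNFSF10, with 0 to 5 counts, is not drawn.

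TNFRSF10A encodes DR4, the other TRAIL receptor with a death domain, and it did not pass the test. It had 780 and 1184 counts without and with CBC in MIA PaCa-2 (35.1 and 47.9 CPM), and 337 and 433 counts in PANC-1 (14.8 and 15.8 CPM). Both PANC-1 libraries lay below both MIA PaCa-2 libraries. Its log2 fold change was 0.45 (0.32 to 0.58) in MIA PaCa-2 and 0.10 (-0.11 to 0.31) in PANC-1, and 0.28 over both lines (standard error 0.26, adjusted p = 0.587, edgeR's quasi-likelihood test).

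The decoy receptor TNFRSF10D followed TNFRSF10A across the libraries and was not called between treatments. It had 789 and 1215 counts without and with CBC in MIA PaCa-2, and 307 and 414 counts in PANC-1. Its log2 fold change was 0.47 (0.34 to 0.60) in MIA PaCa-2 and 0.17 (-0.05 to 0.38) in PANC-1, and over both lines it was 0.33 (standard error 0.26, adjusted p = 0.515, edgeR's quasi-likelihood test). The number of TNFRSF10A reads per TNFRSF10D read was 0.989 and 0.974 in MIA PaCa-2 and 1.10 and 1.05 in PANC-1, without and with CBC. The counting intervals of this ratio overlapped among all 4 libraries. The scaling of a library cancels within such a ratio, which is not corrected for length and is compared here between libraries only.

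Set against its relatives within each library, TNFRSF10B was higher after CBC in both lines. The MIA PaCa-2 control had 3.14 reads of TNFRSF10B per read of TNFRSF10A (2.90 to 3.41) and the CBC library 7.38 (6.95 to 7.85). For PANC-1 this ratio was 4.59 (4.07 to 5.18) in the control and 15.0 (13.6 to 16.6) with CBC. Per read of TNFRSF10D it was 3.11 and 7.20 in MIA PaCa-2, and 5.04 and 15.7 in PANC-1. Within each line the intervals of the 2 libraries did not overlap.

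The other decoy, TNFRSF10C, was a minor message, with 26 and 83 counts in MIA PaCa-2 and 5 and 16 counts in PANC-1. Per length of the canonical transcript, the 4 TRAIL receptor genes summed to 51.5 and 122.5 CPM per kb without and with CBC in MIA PaCa-2, and to 26.5 and 70.1 CPM per kb in PANC-1. TNFRSF10B made up 53.5% ± 1.59 (95% counting interval) of this sum in the MIA PaCa-2 control and 72.2% ± 0.916 after CBC. In PANC-1 cells its share was 64.2% ± 2.13 in the control and 84.9% ± 0.928 after CBC. The share of TNFRSF10A was 25.3% and 14.5% without and with CBC in MIA PaCa-2, and 20.8% and 8.41% in PANC-1. TNFRSF10D made up 19.5% and 11.3% in MIA PaCa-2, and 14.4% and 6.12% in PANC-1. The shares of both were smaller after CBC, while the CPM of neither was.

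**Figure D2:**
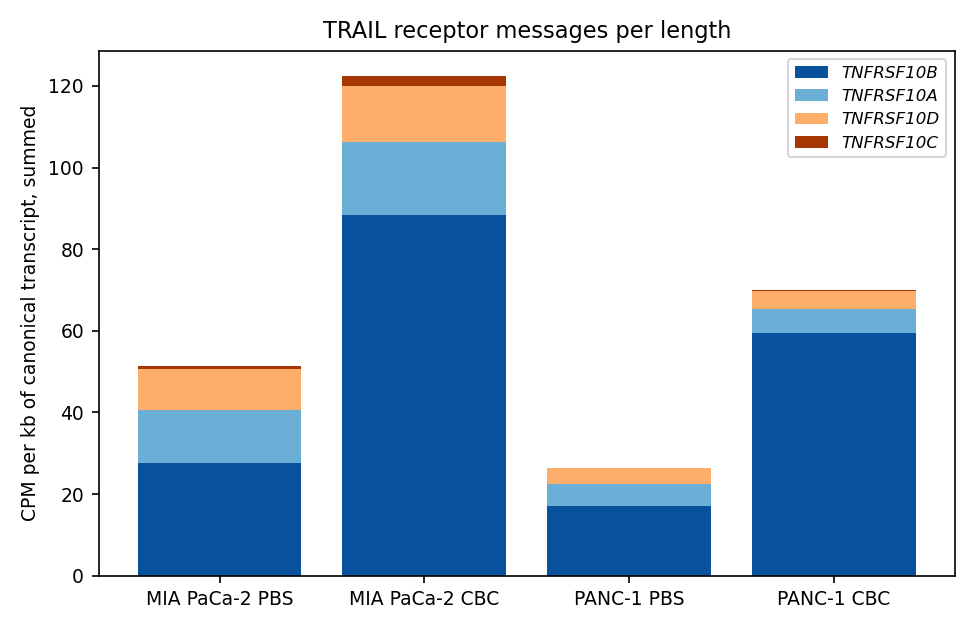
Levels of the 4 TRAIL receptor genes per kb of canonical transcript, stacked, in CPM per kb, with 1 bar per library. The bars reach 51.5 and 122.5 CPM per kb in MIA PaCa-2 and 26.5 and 70.1 CPM per kb in PANC-1, and TNFRSF10B is the largest segment in each of the 4 bars.

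The 4 TRAIL receptor genes lie side by side on chromosome 8 of GRCh38, with TNFRSF10B (ENSG00000120889) from 23020133 to 23069031 and TNFRSF10A from 23190452 to 23225102 at the ends, and TNFRSF10C (from 23102921 to 23117445) and TNFRSF10D (from 23135588 to 23164027) between them. No window of 100 bases, the stated read length, was shared by transcripts of TNFRSF10A, TNFRSF10B or TNFRSF10D and those of another annotated gene. The windows were compared in the direction of transcription only, so overlap with genes on the opposite strand is not covered. For TNFRSF10C, 20.4% of such windows were also in another gene, and its counts are uncertain. The exons of TNFRSF10B overlap RHOBTB2 on the opposite strand over 377 bases (7.52% of its merged exons). RHOBTB2 had 641 and 387 counts without and with CBC in MIA PaCa-2 and 189 and 94 counts in PANC-1, lower with CBC in both lines where TNFRSF10B was higher. TNFRSF10A overlaps the noncoding gene TNFRSF10A-DT on the opposite strand over 266 bases (9.09% of its merged exons). TNFRSF10A-DT had 64 and 81 counts without and with CBC in MIA PaCa-2 and 121 and 163 counts in PANC-1. Whether the counting used strand is not given in the sources used here.

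FAS, the receptor of the Fas ligand, had log2 fold changes of opposite sign in the 2 lines and was not called. It had 435 and 612 counts without and with CBC in MIA PaCa-2 (19.6 and 24.7 CPM) and 276 and 181 counts in PANC-1 (12.1 and 6.62 CPM). The log2 fold change was 0.34 (0.16 to 0.52) in MIA PaCa-2 and -0.87 (-1.15 to -0.60) in PANC-1, neither past 1 in size. Over both lines it was -0.25 (standard error 0.37, adjusted p = 0.757, edgeR's quasi-likelihood test). The difference between the lines could not be tested, since a term for it leaves no residual degree of freedom. Exons of FAS overlap STAMBPL1 on the same strand (0.566% of the merged exons of FAS) and ACTA2 on the opposite one (1.32%).

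TNFRSF1A encodes TNFR1, the main receptor for TNF, and it was not called between treatments. It had 6252 and 4265 counts without and with CBC in MIA PaCa-2 (281 and 172 CPM) and 3836 and 4585 counts in PANC-1 (169 and 168 CPM). The MIA PaCa-2 control was high, and the other 3 libraries lay together. The log2 fold change was -0.71 (-0.76 to -0.65) in MIA PaCa-2 and -0.01 (-0.07 to 0.05) in PANC-1, with -0.35 over both lines (standard error 0.22, adjusted p = 0.413, edgeR's quasi-likelihood test).

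The ligand gene TNFSF10, which encodes TRAIL itself, was almost unread. It had 5 and 0 counts in MIA PaCa-2 and 4 and 2 counts in PANC-1, all at most 0.225 CPM, and was left out of the test by the filter on low counts. With so few counts only a very large difference in TNFSF10 could have been seen. In PANC-1 the counting interval of its log2 fold change ran from -4.73 to 1.54, and in MIA PaCa-2 its upper bound was -0.03, with no lower bound because the CBC library had 0 counts. The gene of the Fas ligand, FASLG, had 0 counts in all 4 libraries, and TNF had at most 15 counts in any of them.

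Genes of the complex under the receptors differed less between treatments than TNFRSF10B did, and none of the 4 was past a log2 fold change of 1 or called. FADD, the adaptor, had 853 and 896 counts without and with CBC in MIA PaCa-2 (38.4 and 36.2 CPM) and 1662 and 1686 counts in PANC-1 (73.1 and 61.7 CPM). Its log2 fold change was -0.08 (-0.22 to 0.05) and -0.24 (-0.34 to -0.15) in the same lines. CASP8, the initiator caspase, had 2006 and 2604 counts in MIA PaCa-2 (90.2 and 105 CPM) and 1842 and 2320 counts in PANC-1 (81.0 and 84.9 CPM). Its log2 fold change was 0.22 (0.14 to 0.31) and 0.07 (-0.02 to 0.16). The 4 libraries lay between 81.0 and 105 CPM for CASP8, while for FADD both PANC-1 libraries lay above both MIA PaCa-2 libraries. Exons of FADD overlap an unnamed noncoding gene on the opposite strand (59.2% of its merged exons), which had at most 5 counts.

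CFLAR, the gene of c-FLIP, had 3213 and 3324 counts without and with CBC in MIA PaCa-2 (144 and 134 CPM) and 980 and 1219 counts in PANC-1 (43.1 and 44.6 CPM). Its libraries separated by line and hardly by treatment. The log2 fold change was -0.10 (-0.17 to -0.03) in MIA PaCa-2 and 0.05 (-0.07 to 0.17) in PANC-1. RIPK1 had 1492 and 1358 counts in MIA PaCa-2 (67.1 and 54.9 CPM) and 1442 and 1873 counts in PANC-1 (63.4 and 68.5 CPM). Its log2 fold change was -0.29 (-0.40 to -0.18) in MIA PaCa-2 and 0.11 (0.01 to 0.21) in PANC-1. Over both lines the log2 fold changes of FADD, CASP8, CFLAR and RIPK1 ran from -0.16 to 0.15, with standard errors from 0.21 to 0.22 and adjusted p from 0.733 to 0.968 (edgeR's quasi-likelihood test). A p above the threshold does not show that these messages stayed the same.

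**Figure D3:**
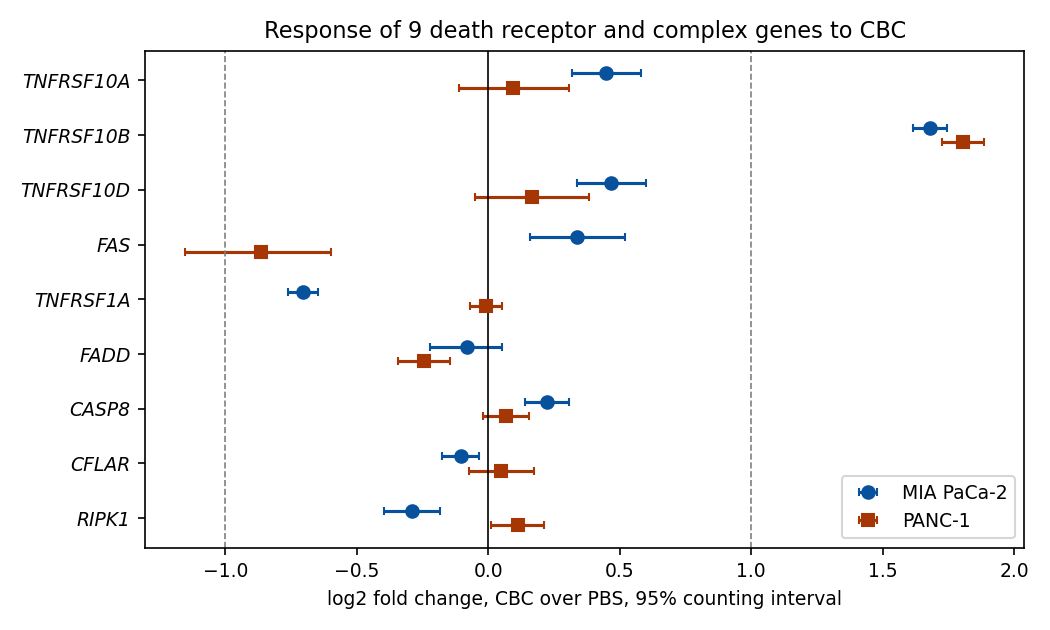
Log2 fold change of CBC over PBS for 9 genes in MIA PaCa-2 (circles) and PANC-1 cells (squares), with 95% counting intervals as bars and dashed lines at -1 and 1. TNFRSF10B lies past 1 in both lines (1.68 and 1.80), and FAS lies on opposite sides of 0 (0.34 and -0.87).

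In the controls, CFLAR and the TRAIL receptor genes TNFRSF10A and TNFRSF10D were lower in PANC-1 than in MIA PaCa-2. Between the PBS libraries, 3 of the 9 genes were past a log2 fold change of 1, all lower in PANC-1, where 41.9% of all tested genes passed it in either direction. They were CFLAR (144 and 43.1 CPM in MIA PaCa-2 and PANC-1 cells, log2 fold change -1.74, interval -1.85 to -1.64), TNFRSF10D (35.5 and 13.5 CPM, -1.39, -1.59 to -1.20) and TNFRSF10A (35.1 and 14.8 CPM, -1.24, -1.43 to -1.06). All 3 intervals lay wholly past a 2-fold change. TNFRSF1A (-0.74), TNFRSF10B (-0.70) and FAS (-0.68) were lower in the PANC-1 control by less than that, and FADD was higher, at 0.93 (0.81 to 1.05). CASP8 (-0.15) and RIPK1 (-0.08) lay nearest to 0. The median of the 9 genes was -0.70, and that of all 14805 tested genes was 0.10.

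With treatment as a block, each line had 2 libraries, and the same additive fit called 6 of the 9 genes between the lines, where it called 46.7% of all genes. CFLAR had a log2 fold change of -1.73 in PANC-1 against MIA PaCa-2 cells (standard error 0.21, adjusted p = 0.000518, edgeR's quasi-likelihood test). TNFRSF10D (-1.61, standard error 0.26, adjusted p = 0.00203) and TNFRSF10A (-1.48, standard error 0.26, adjusted p = 0.00301) followed in the same test. For these 3 genes both MIA PaCa-2 libraries lay above both PANC-1 libraries. FAS (-1.35, adjusted p = 0.0202), TNFRSF10B (-0.69, adjusted p = 0.0190) and FADD (0.79, adjusted p = 0.0215) were called as well by edgeR's quasi-likelihood test. Without the block for treatment the adjusted p of FAS was 0.0800, that of TNFRSF10B 0.549 and that of FADD 0.0755, so these 3 calls were lost. TNFRSF10B overlapped between the lines, since treated PANC-1 cells (238 CPM) lay above the MIA PaCa-2 control (110 CPM). TNFRSF1A (adjusted p = 0.136), CASP8 (0.279) and RIPK1 (0.845) were not called in this edgeR fit.

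**Figure D4:**
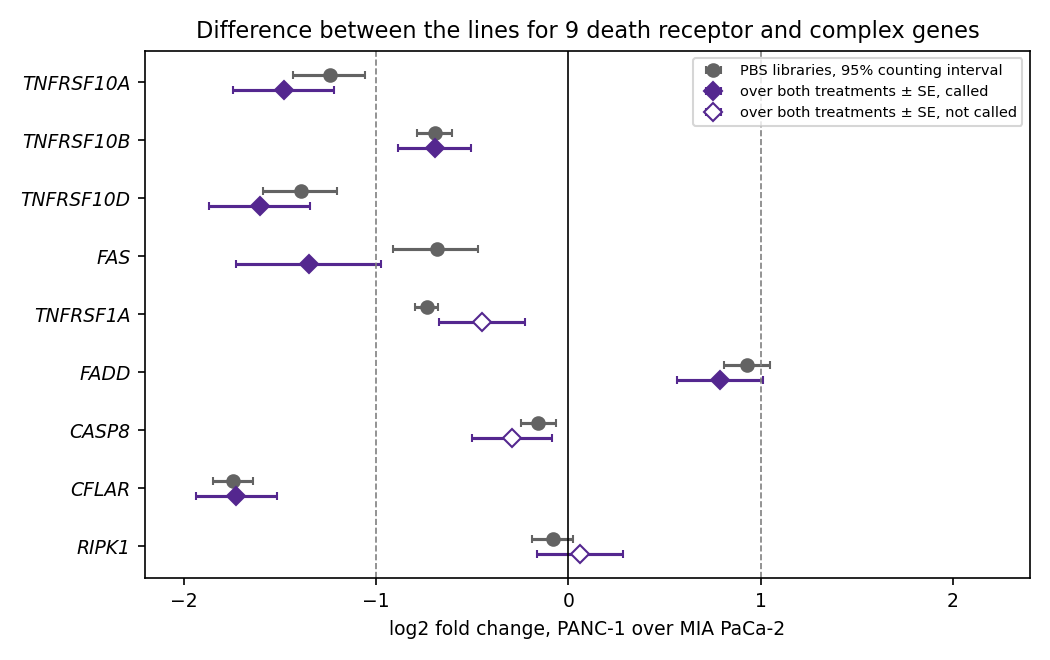
Log2 fold change of PANC-1 over MIA PaCa-2 for 9 genes, between the PBS libraries (circles, 95% counting interval) and over both treatments (diamonds, ± standard error, filled when called). CFLAR, TNFRSF10D and TNFRSF10A lie below -1 on both measures, and FADD is the one called gene on the side of PANC-1.

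The relation of CASP8 and FADD to CFLAR differed more between the lines than between treatments. MIA PaCa-2 cells had 0.624 reads of CASP8 per read of CFLAR (0.590 to 0.660) in the control and 0.783 (0.744 to 0.825) after CBC. PANC-1 cells had 1.88 (1.74 to 2.03) in the control and 1.90 (1.77 to 2.04) after CBC. The ratio in the PANC-1 control was 3.01 times that in the MIA PaCa-2 control, while with CBC it was 1.25 times the control value in MIA PaCa-2 and 1.01 times in PANC-1. Reads of FADD per read of CFLAR were 0.265 and 0.270 without and with CBC in MIA PaCa-2 and 1.70 and 1.38 in PANC-1. For TNFRSF10B per read of CFLAR the values were 0.763 and 2.63 in MIA PaCa-2, and 1.58 and 5.33 in PANC-1, or 3.45 and 3.38 times as high after CBC. These are read counts that are not corrected for length, so only their changes between libraries can be read. Counts per gene do not separate the long and short forms of c-FLIP.

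CFLAR (ENSG00000003402, chromosome 2 of GRCh38, 201116154 to 201176687) and CASP8 (ENSG00000064012, 201233443 to 201361836) flank CASP10, which encodes a close relative of caspase-8. CASP10 had 359 and 468 counts without and with CBC in MIA PaCa-2 and 2 counts in each PANC-1 library. Its count in the PANC-1 control was thus 0.00545 times that in the MIA PaCa-2 control after scaling, with a counting interval from 0.000657 to 0.0198. Over both treatments CASP10 differed by -7.75 on the log2 scale (standard error 0.54, adjusted p = 3.19e-05, edgeR's quasi-likelihood test). Of these 3 genes, CFLAR and CASP10 were lower in PANC-1, and CASP8 was at 90.2 and 81.0 CPM in the controls.

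A list of 40 further genes of the pathway (other receptors and ligands, adaptors and ubiquitin enzymes, downstream effectors) was placed beside the 10 genes. In MIA PaCa-2 cells 8 of the 33 that reached 1 CPM were higher by more than 1 on the log2 scale after CBC and 3 were lower, where 20.5% of all tested genes passed this threshold in either direction. In PANC-1 cells 3 of 30 were higher and 2 lower, against 14.7% of all tested genes. The test over both lines called 3 of 32 genes, 2 higher and 1 lower, against 4.71% of all. The medians of the list were 0.39 in MIA PaCa-2 and 0.17 in PANC-1, against -0.01 and 0.02 for all tested genes.

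NGFR, which encodes the neurotrophin receptor p75 with a death domain, rose most among the called genes of this list. It had 86 counts without and 1492 with CBC in MIA PaCa-2, and 27 and 193 in PANC-1, and its log2 fold change over both lines was 3.36 (standard error 0.42, adjusted p = 0.0116, edgeR's quasi-likelihood test). RBCK1, a subunit of the linear ubiquitin ligase that acts on TNF receptor complexes, had 1811 and 3670 counts in MIA PaCa-2, and 1832 and 7204 in PANC-1 (log2 fold change 1.29, standard error 0.25, adjusted p = 0.0317, same test). The other subunits of that ligase, RNF31 (0.07, adjusted p = 0.916) and SHARPIN (0.41, adjusted p = 0.378), were not called. TNFRSF1B, which encodes TNFR2, a TNF receptor without a death domain, fell. It had 804 and 355 counts without and with CBC in MIA PaCa-2 and 145 and 54 counts in PANC-1, with a log2 fold change of -1.49 over both lines (standard error 0.31, adjusted p = 0.0407, edgeR's quasi-likelihood test). With DESeq2 size factors in edgeR its adjusted p was 0.0506, above the threshold.

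TNFRSF21, the gene of DR6, had 166 counts without and 426 with CBC in MIA PaCa-2, and 2294 and 1157 in PANC-1. Its log2 fold changes, 1.20 (0.94 to 1.47) and -1.25 (-1.36 to -1.15), had opposite signs. It was the gene of the list with the largest baseline difference toward PANC-1 cells, at 7.46 CPM in the MIA PaCa-2 and 101 CPM in the PANC-1 control. Among downstream genes, BID was higher in the MIA PaCa-2 control (86.7 CPM) than in the PANC-1 control (24.2 CPM), and it was called between the lines (adjusted p = 0.000672, edgeR's quasi-likelihood test). RIPK3, the kinase that carries necroptosis below RIPK1, had 0 counts in all 4 libraries, while its substrate MLKL was at 6.04 to 15.6 CPM.

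Some further genes of the list were picked after their values were seen. TNFSF15, the ligand of the receptor DR3, had 3 counts without and 239 with CBC in MIA PaCa-2, and 0 in both PANC-1 libraries. TNFAIP3, an inhibitor of NF-kB signalling at TNF receptors, had 60 and 875 counts in MIA PaCa-2, and 132 and 220 in PANC-1. For BIRC3, a ubiquitin ligase of the TNF receptor complex, they were 703 and 3168, and 964 and 1551. Neither TNFAIP3 (adjusted p = 0.162) nor BIRC3 (adjusted p = 0.118) was called over both lines by edgeR's quasi-likelihood test.

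**Figure D5:**
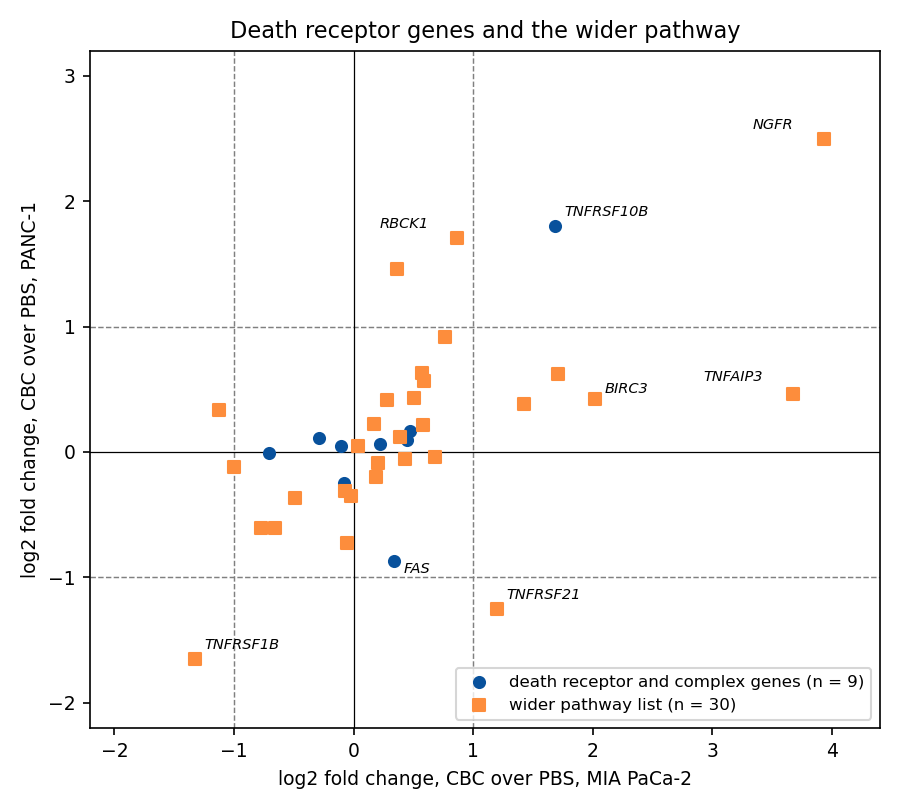
Log2 fold change of CBC over PBS in MIA PaCa-2 (x axis) against PANC-1 cells (y axis), for 9 death receptor and complex genes (circles) and 30 genes of the wider list (squares) that passed the filter of 1 CPM in both lines, with dashed lines at -1 and 1. TNFRSF10B and NGFR lie past 1 in both lines, TNFRSF1B lies below -1 in both, and TNFRSF21 lies in the opposite quadrant at 1.20 and -1.25.

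The transcription factor CHOP, encoded by DDIT3, is known to raise TNFRSF10B under stress of the endoplasmic reticulum, and the pseudokinase gene TRIB3 is another CHOP target. Of 7 genes listed as regulators of TNFRSF10B or partners of CHOP, 3 were called higher by the test over both lines. They were DDIT3, TRIB3 and ATF4, and ELK1, SP1 and YY1 were among those not called. This test called 4.71% of all 16381 genes in either direction, and the 7 genes were chosen with earlier results of these data known. DDIT3 was at 8.63 CPM in the MIA PaCa-2 control and 187 CPM with CBC, and at 23.4 and 196 CPM in PANC-1. Its log2 fold change over both lines was 3.74 (adjusted p = 0.00597), beside 3.44 for TRIB3 (adjusted p = 0.00144) and 1.27 for ATF4 (adjusted p = 0.0229), all by edgeR's quasi-likelihood test. Their part in the change of TNFRSF10B was not tested.

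Over the 4 libraries, the gene whose pattern came nearest to that of TNFRSF10B was CCNG2, which encodes the atypical cyclin G2. Its log2 CPM, centred on the mean of the gene, lay at a root mean square distance of 0.048 from that of TNFRSF10B when 10068 genes averaging 10 CPM or more were compared. VEGFA, an angiogenic growth factor gene, came next at 0.135, and LURAP1L at 0.153. CCNG2 had 195 and 694 counts without and with CBC in MIA PaCa-2 and 132 and 522 counts in PANC-1. The distance rests on 4 libraries.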

How the data were processed

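Counts per Ensembl gene were deposited by the authors, after trimming (cutadapt 2.7), alignment to GRCh38 (STAR) and counting (HTSeq, annotation release 89). Whether HTSeq used strand is not given in the sources used here. The deposited CPM, a signal on library sizes that the authors scaled by TMM over 4 libraries, equalled the counts scaled the same way to within 4.88e-06 CPM and served as an alternative.

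Symbols (57392 of 58233 identifiers matched), positions and lengths came from GENCODE 44 on GRCh38, a later annotation than that of the counts. Log2 fold changes used edgeR 4.0.16 in R 4.3.3 with TMM over 4 libraries and a prior count of 2, for genes of at least 1 CPM in 1 of the 2 libraries. Intervals are exact binomial ones at 95% (scipy 1.17.1), by the delta method for shares, and cover counting error only. The quasi-likelihood test ran on 16381 genes that passed edgeR's filter, with line or treatment as a block, at an adjusted p under 0.05. The pairing is by cell line, and the deviations of same-line libraries had a correlation of 0.923 across genes. On simulated counts for CBC against PBS over both lines (16516 genes, 200 changed 4-fold), 85.5% of the changed genes were recovered with 2.84% of calls false. The simulation gave both lines the same change and every gene the same coefficient of variation (23.0%). Its rates therefore do not cover genes whose response differs between the lines. The 10 genes, the gene lists and the rule for naming genes of the wider list (of at least 5 CPM on average, past the fold in the same direction in both lines, called, or among the 5 widest baseline differences) were chosen with earlier results of these data known. Likeness to TNFRSF10B took the 3 nearest genes. Some genes of the lists are counted but not reported here by name. Alternatives changed the filter, scaling, prior count, values, tool (DESeq2 1.42.0), block and transcript length.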

Additional observations from a re-analysis of the deposited data

Results flagged for a closer look

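Among the 10 genes and those named from the wider list by rule, 3 had log2 fold changes after CBC of opposite sign in the lines, with counting intervals on opposite sides of 0. In the order MIA PaCa-2, PANC-1, they were FAS (0.34 and -0.87), RIPK1 (-0.29 and 0.11) and TNFRSF21 (1.20 and -1.25). Of the rest of the wider list, DAXX (0.19 and -0.20) and CASP6 (-1.12 and 0.34), picked after their values were seen, had the same pattern. For RIPK1 the interval in PANC-1 began at 0.01, close to 0. Its log2 fold change there was 0.083 with TMM within the 2 libraries and 0.095 with DESeq2 size factors, in place of 0.112. The place of RIPK1 among these genes thus depends on the scaling. How many of all tested genes had such opposite signs was not counted, so these numbers do not show whether the pattern is unusual. The intervals cover counting error only. Each line had 1 library per treatment, so the difference between the lines was not tested, and variation between cultures cannot be told apart from it.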

How the results depend on the processing

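TNFRSF10B was the gene past the threshold in both lines under the 3 other scalings, the smaller prior count and the deposited CPM, and was called over both lines by each alternative that kept the block for cell line. Without a filter on low counts, 2 of the 10 genes passed the fold threshold in MIA PaCa-2 cells in place of 1, since TNFSF10 (5 and 0 counts) was then included. Without a block, 0 were called for CBC against PBS in place of 1 (0 of all genes, with 354 at an unadjusted p under 0.05), and 3 in place of 6 between the lines. Small values changed sign. For CBC over both lines, CFLAR (-0.02) was at 0.040 under library totals, FAS (-0.25) at 0.0097 without a block, and ELK1 at 0.057 under library totals and 0.012 without a block. Between the lines, RIPK1 (0.06) was at -0.011 under library totals and TRIB3 (0.09) at -0.050 without a block. None of these 6 values was called, with or without the alternative. Library totals moved the median baseline difference of all genes from 0.10 to -0.03. Among all genes, those past the fold were 5816 without a filter and 1848 at 5 CPM in MIA PaCa-2 cells (2864 as reported), 4847 and 1297 in PANC-1 cells (2078), and 10878 without a filter at baseline (6207). Calls for CBC numbered 2063 without a filter and 1371 with DESeq2 (771), and calls between the lines 4251 without a block (7652). With merged exon lengths, a choice made after the data were seen, the share of TNFRSF10B was 49.1% and 68.5% in MIA PaCa-2 and 60.1% and 82.5% in PANC-1 cells. Leaving out a line leaves the fold change within the other, with no test. Depth limits TNFSF10, TNFRSF10C and the PANC-1 value of CASP10.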
